A study of Homo sapiens with 4 samples.

Results

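The 10 genes described here are the subunits of the transcription factor NF-kB (RELA, RELB, NFKB1 and NFKB2), 3 inhibitors that hold it in the cytoplasm (NFKBIA, NFKBIB and NFKBIE), the nuclear cofactor NFKBIZ, the feedback enzyme TNFAIP3 and the TNF-induced gene TNFAIP2. They were chosen by name, with earlier results of these data known, so setting them against all genes is no test. All 10 had a value in every library, out of 27658 gene identifiers listed. RNA was sequenced from the human prostate cancer cell lines DU145, established from a brain metastasis, and PC-3, established from a bone metastasis. Each line was kept for 48 h with the small molecule OICR-9429, which blocks the binding of WDR5 to MLL, or with DMSO as its vehicle. WDR5 is an adaptor of histone methyltransferase complexes. The dose was 120 µM for DU145 and 150 µM for PC-3, and the 4 groups (DU145 or PC-3, OICR-9429 or DMSO) have 1 library each. DU145 was grown in DMEM and PC-3 in RPMI1640, so medium and dose cannot be told apart from the line.

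NF-kB proteins bind DNA as dimers of Rel-homology subunits. In resting cells the dimers are held by IkB proteins, and in the canonical pathway the IKK complex marks IkB for destruction and so frees dimers that contain RELA. In the non-canonical pathway the kinase NIK, encoded by MAP3K14, leads to processing of the NFKB2 precursor, whose product pairs with RELB. Several of these genes are themselves known targets of NF-kB, among them NFKBIA, TNFAIP3, NFKB2 and RELB, and the first pair feed back to shut the pathway off. NF-kB activity has been described in both DU145 and PC-3.

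The libraries held 27591000 to 29312000 fragments, and the members were covered by between 680 and 17415 fragments each. Where 2 values follow each other, the first is the library with DMSO and the second the one with OICR-9429. The line labels were checked with CTNNA1, a gene lost in PC-3, which measured 499 and 656 CPM (DU145) and 2.73 and 3.45 CPM (PC-3). EPCAM, KRT8 and KRT18, markers of epithelium, lay between 31.3 and 562 CPM in all 4 libraries, while KRT5 and KLK3 were not listed in any, and HOXB13 was not listed in DU145. The leukocyte markers summed to between 0.755 and 3.62 CPM, with CD3E and LYZ not listed, the endothelial markers to between 2.17 and 27.2 CPM, and the fibroblast markers to between 3.69 and 69.3 CPM. Of the 4 fibroblast markers 1 was over 1 CPM in each line, as was 1 of the 3 endothelial markers. The fibroblast sum thus rests mainly on 1 gene in each line and does not measure a share of cells. It was lower with OICR-9429 in both lines, and its part in the results was not tested. Values are in CPM, the count of a gene scaled to the total of its library, and changes are differences of log2(CPM + 1). Ratios of CPM are followed by their exact 95% interval, which holds counting error and no other. With 1 library per group, a difference between 2 libraries has no replicate check. In bulk RNA, fewer cells that express a gene and less RNA per cell cannot be told apart.

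Of the 10 genes, 8 had promoter windows in RefSeq (GRCh38.p14), running from 250 bases before to 50 bases after an annotated start. RELB and NFKBIE had none in the table. The kB consensus (GGG, a purine, any base, A or T, a pair of pyrimidines and CC, read on both strands) occurred in 6 of these 8 genes, NFKB1, NFKB2, NFKBIA, NFKBIB, NFKBIZ and TNFAIP3. It occurred in 7.09% of all 27305 genes of the table. A stricter form (GGGA, any base, TTTCC) occurred in the same 6 genes and in 0.678% of all genes. Neither RELA nor TNFAIP2 had a match in these windows. The stretches around the matches are shown because they let the promoters of feedback genes be compared, with the kB match in capitals and each read in the direction of the gene.
NFKBIA: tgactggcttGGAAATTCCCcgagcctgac
TNFAIP3: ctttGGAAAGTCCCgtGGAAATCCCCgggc
NFKB2, start 2, upstream match: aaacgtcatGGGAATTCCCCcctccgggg
NFKB2, start 2, downstream match: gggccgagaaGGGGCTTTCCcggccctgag
NFKB2, start 3, upstream match: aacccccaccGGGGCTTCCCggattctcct
NFKB2, start 3, downstream match: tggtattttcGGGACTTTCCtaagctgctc
NFKB1: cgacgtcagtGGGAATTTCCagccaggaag
NFKBIB: ggcgtggtgGGGAATTTCCCgcagggcgg
NFKBIZ, start 1: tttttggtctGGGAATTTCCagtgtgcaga
NFKBIZ, start 2: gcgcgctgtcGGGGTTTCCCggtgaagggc
The stretch of NFKBIA lies on the minus strand at chr14:35404811-35404840, and its match begins 81 bases before the start. That of TNFAIP3 is on the plus strand at chr6:137867188-137867217 and holds 2 matches, which begin 67 and 55 bases before the start. Both genes thus carry the match within 100 bases of the start, in the antisense reading. The other stretches lie on the plus strand at chr10:102394462-102394490, where 2 matches overlap, chr10:102394490-102394519, chr10:102395519-102395548, chr10:102395674-102395703, chr4:102501300-102501329, chr19:38899932-38899960, where 2 matches overlap, chr3:101827757-101827786 and chr3:101849265-101849294, in the order NFKB2, NFKB1, NFKBIB and NFKBIZ. NFKB1, NFKBIB and start 1 of NFKBIZ share the same 10 letters, GGGAATTTCC. The match of NFKBIA holds these 10 letters too, read on the other strand. Among comparison motifs, the GC box GGGCGG occurred in all 8 genes (48.3% of all genes), the AP-1 motif TGANTCA in NFKBIB alone (9.37%), the interferon-response motif (GAAA, a pair of any bases, GAAA) in RELA alone (4.38%) and TATAAA in NFKBIA and NFKBIZ (14%). A match is a string of letters and not a binding measurement.

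**Figure D1:**
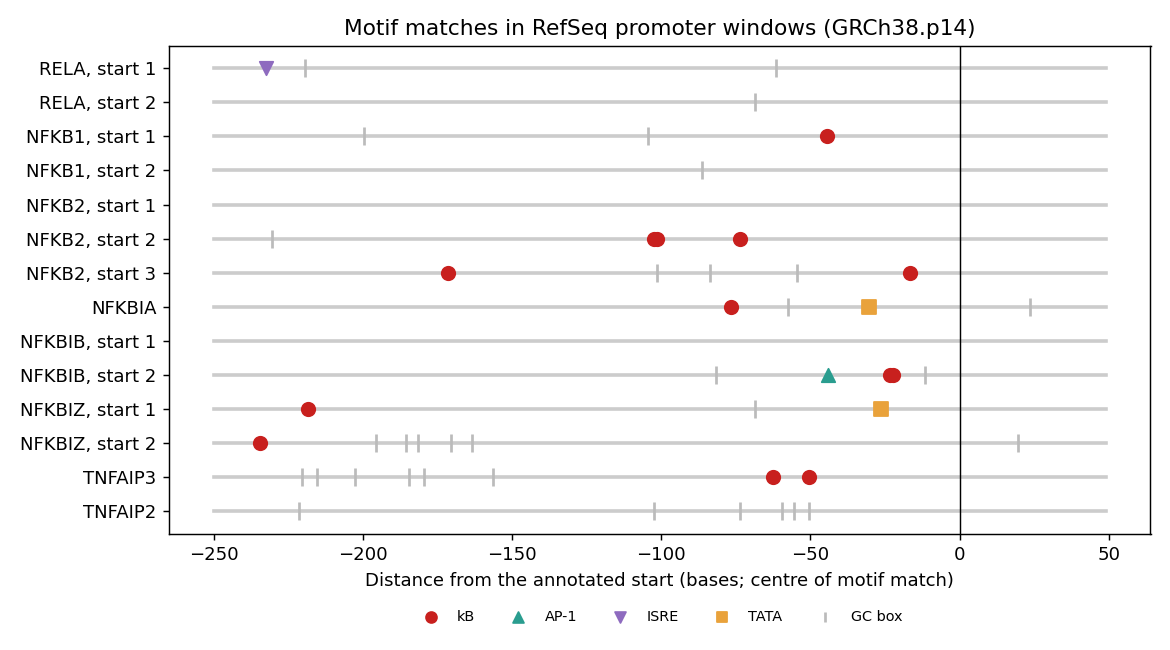
Motif matches in the RefSeq windows of 8 genes, plotted by distance in bases from the annotated start, with 1 line per start. Red circles are kB matches, which occur in 6 of the 8 genes, and the other symbols are the comparison motifs.

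RELB was the subunit that stood furthest from its DMSO value, in PC-3, while NFKB1 was close to it in both lines. RELB (ENSG00000104856), which carries a transactivation domain and is the partner of processed NFKB2, measured 43.5 and 35.5 CPM (DU145) and 23.2 and 78.5 CPM (PC-3). The treated PC-3 library was thus the highest of the 4 and the PC-3 library with DMSO the lowest. The ratio of OICR-9429 to DMSO was 3.39 in PC-3 (3.10 to 3.69) and 0.817 in DU145 (0.751 to 0.889). RELB was the 1 member that was higher by at least 2-fold in PC-3, where 7.15% of all genes over 1 CPM were. RELA (ENSG00000173039), the main transactivating subunit of the canonical dimers, measured 151 and 139 CPM (DU145) and 179 and 207 CPM (PC-3), with ratios of 0.924 (0.885 to 0.966) and 1.16 (1.11 to 1.20). Both PC-3 libraries lay above both DU145 libraries for RELA.

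NFKB1 and NFKB2 encode precursors that are cut to DNA-binding subunits without a transactivation domain. NFKB2 (ENSG00000077150) measured 236 and 167 CPM (DU145) and 83.9 and 115 CPM (PC-3), with ratios of 0.709 (0.683 to 0.737) and 1.37 (1.30 to 1.45). The lines did not overlap, but their values lay closer together with OICR-9429. NFKB1 (ENSG00000109320) measured 77.5 and 70.3 CPM (DU145) and 65.6 and 60.8 CPM (PC-3), with ratios of 0.908 (0.854 to 0.965) and 0.926 (0.867 to 0.989). It was the subunit with the least spread across the 4 libraries.

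The makeup of the subunit transcripts differed between the libraries. Levels of different genes are compared per kilobase of exon in the annotation, and the shares are of the sum of RELA, RELB, REL, NFKB1 and NFKB2. With DMSO, in DU145, NFKB2 took 44.4% and RELA 30.9%. In PC-3 with DMSO RELA took 53.8% and NFKB2 23.2%, so the order of these 2 subunits was reversed. With OICR-9429 NFKB2 took 38.7% and RELA 35.1% in DU145, and RELA took 44.1% in PC-3. The share of RELB was 13.1% in both DU145 libraries, while in PC-3 it was 10.3% with DMSO and 24.6% with OICR-9429, ahead of NFKB2 at 22.6%. REL, the remaining Rel protein and best known in lymphocytes, took between 0.611% and 2.26%. It measured 29.6 and 29.8 CPM (DU145) and 6.76 and 11.1 CPM (PC-3).

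**Figure D2:**
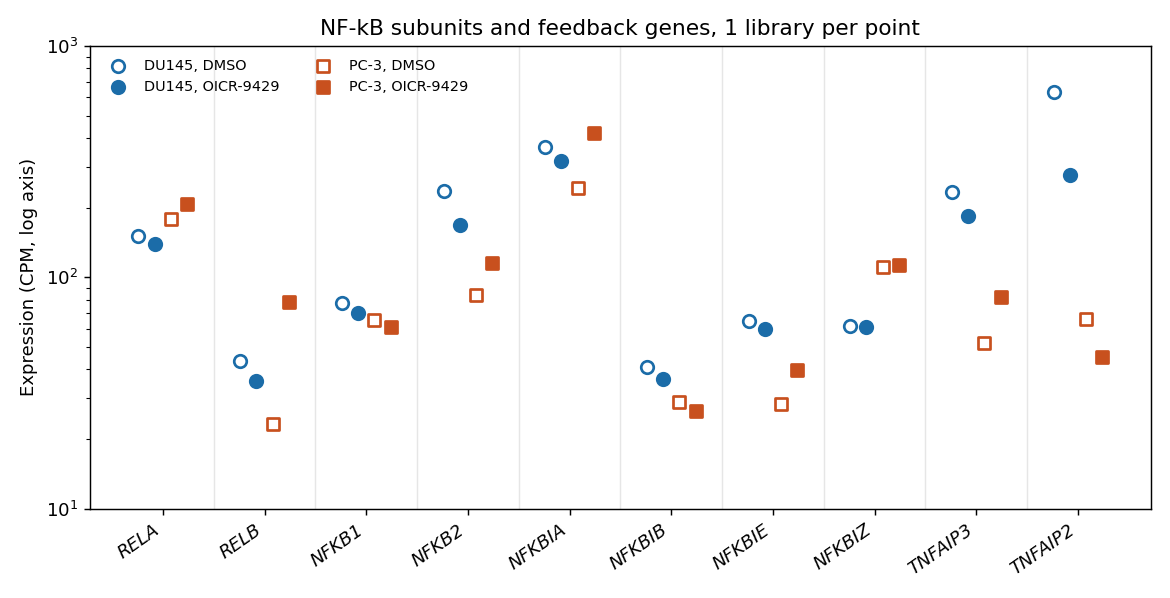
Expression of the 10 genes in CPM on a log axis, with 1 point per library (open, DMSO; filled, OICR-9429; circles, DU145; squares, PC-3). RELB in PC-3 goes from 23.2 to 78.5 CPM, and TNFAIP2 in DU145 from 631 to 277 CPM.

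Ratios between members within 1 library do not depend on how the libraries are scaled. These pairs were chosen after the values were seen. RELB per RELA, both per kilobase, was 0.424 (0.397 to 0.452) and 0.375 (0.350 to 0.402) in DU145 with DMSO and OICR-9429. In PC-3 it was 0.191 (0.176 to 0.207) and 0.558 (0.531 to 0.586), which spans both DU145 values. NFKB2 per NFKB1 was 4.56 (4.35 to 4.79) and 3.57 (3.38 to 3.76) in DU145. It was 1.92 (1.81 to 2.04) and 2.85 (2.68 to 3.02) in PC-3. In DU145 both of these ratios were lower with OICR-9429, and in PC-3 both were higher. The shares of the 5 subunits did not all follow them, since that of RELB was level in DU145 and that of NFKB2 was 23.2% and 22.6% in PC-3.

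Among the inhibitors, NFKBIA stood furthest from its DMSO value in PC-3. NFKBIA (ENSG00000100906) encodes IkB-alpha, the inhibitor that is destroyed and made anew fastest, and measured 365 and 317 CPM (DU145) and 242 and 419 CPM (PC-3). Its ratio was 1.73 in PC-3 (1.68 to 1.78), short of the 2-fold rule, and 0.869 in DU145 (0.844 to 0.894). NFKBIE (ENSG00000146232), which encodes IkB-epsilon, measured 64.8 and 59.7 CPM (DU145) and 28.3 and 39.7 CPM (PC-3), where the ratio was 1.40 (1.28 to 1.54). NFKBIB (ENSG00000104825), which encodes IkB-beta, measured 40.8 and 36.3 CPM (DU145) and 28.8 and 26.4 CPM (PC-3), where the ratio was 0.919 and its interval included 1 (0.832 to 1.02). Both NFKBIB and NFKBIE were lower in both PC-3 libraries than in both DU145 libraries.

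Per kilobase, NFKBIA made up 80.6% to 88.8% of the 3 inhibitor transcripts in each library. NFKBIA per NFKBIB was 10.04 (9.44 to 10.7) and 9.80 (9.19 to 10.5) in DU145 and 9.44 (8.79 to 10.1) in PC-3 with DMSO, intervals that overlap. In PC-3 with OICR-9429 it was 17.8 (16.5 to 19.2). In PC-3 with DMSO NFKBIE per NFKBIB was 0.813 (0.737 to 0.895), below the 1.24 to 1.36 of the other 3 libraries. NFKBIA per RELA was 4.32 (4.16 to 4.48) and 4.06 (3.91 to 4.21) in DU145 and 2.41 (2.32 to 2.50) and 3.60 (3.49 to 3.72) in PC-3, so the treated PC-3 library lay nearer to DU145. BCL3, an IkB-like cofactor that works in the nucleus, measured 87.3 and 49.5 CPM (DU145) and 20.8 and 56.5 CPM (PC-3). Its ratios were 0.567 (0.531 to 0.606) and 2.72 (2.48 to 2.99). The treated libraries of the lines were thus close to each other. Of the 5 other Rel and IkB genes listed, BCL3 alone passed 2-fold, in PC-3.

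TNFAIP3 (ENSG00000118503) encodes a ubiquitin-editing enzyme that stops signalling from the TNF receptor to IKK. It measured 234 and 183 CPM (DU145) and 52.0 and 82.2 CPM (PC-3), with ratios of 0.783 (0.755 to 0.813) and 1.58 (1.48 to 1.69). Both DU145 libraries lay above both PC-3 libraries. Per kilobase and relative to RELA, TNFAIP3 was at 1.11 (1.07 to 1.15) and 0.940 (0.902 to 0.980) in DU145, and at 0.207 (0.196 to 0.220) and 0.283 (0.270 to 0.297) in PC-3. NFKBIZ (ENSG00000144802), which encodes the nuclear cofactor IkB-zeta, measured 61.5 and 60.8 CPM (DU145) and 110 and 113 CPM (PC-3). Its ratios were 0.988 (0.923 to 1.06) and 1.02 (0.974 to 1.08), so a difference with OICR-9429 was not detectable at this depth on the deposited scale.

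TNFAIP2 (ENSG00000185215), a gene induced by TNF that is not an inhibitor of NF-kB, was the member with the lowest ratio of OICR-9429 to DMSO in both lines. It measured 631 and 277 CPM (DU145) and 66.3 and 45.0 CPM (PC-3), with ratios of 0.439 (0.427 to 0.450) and 0.679 (0.632 to 0.730). The gene was lower with OICR-9429 in both lines, and the lines did not overlap. It was the 1 member that was lower by at least 2-fold in DU145, where 8.01% of all genes over 1 CPM were. This call was lost with a change of −0.996 on the log2 scale under TMM scaling and −0.94 under median-of-ratios scaling. No member was higher by 2-fold in DU145 (0.999% of all genes), and none was lower by 2-fold in PC-3 (8.68%).

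**Figure D3:**
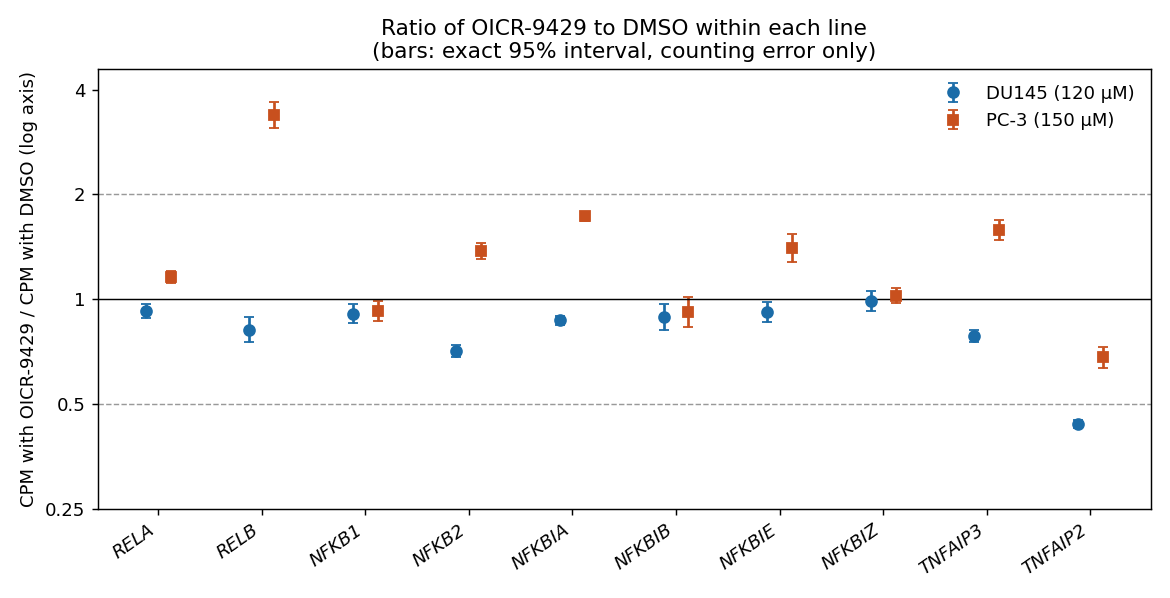
Ratio of CPM with OICR-9429 to CPM with DMSO in DU145 (circles) and PC-3 (squares), on a log axis, with exact 95% intervals for counting error only. Dashed lines mark 2-fold, which RELB passes in PC-3 (3.39) and TNFAIP2 in DU145 (0.439).

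Over the 10 members the median change with OICR-9429 was −0.18 (DU145) and 0.33 (PC-3). All genes with a mean over 10 CPM had medians of −0.07 and −0.01. All genes over 1 CPM, the set behind the 2-fold shares, had medians of −0.18 and −0.01. In DU145 the median of the members was thus level with that of all genes over 1 CPM. In DU145 the interval lay below 1 for 9 members and included 1 for NFKBIZ. Changes in DU145 are raised by 0.19 under TMM and 0.24 under median-of-ratios scaling, however, and only RELB, NFKB2, TNFAIP3 and TNFAIP2 were lower on all 3 scales, RELB by as little as −0.05 under median-of-ratios scaling. In PC-3 the interval lay above 1 for 6 members (RELA, RELB, NFKB2, NFKBIA, NFKBIE and TNFAIP3) and below 1 for NFKB1 and TNFAIP2. The same scalings moved PC-3 changes by 0.03 and 0.02 and turned no direction there.

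The change in PC-3 minus the change in DU145 was over 0 for all 10 members. Its median was 0.61, against 0.05 for all genes with a mean over 10 CPM and 0.17 for all genes over 1 CPM. The difference was over 0 for 7 members under TMM and under median-of-ratios scaling, the exceptions being NFKB1, NFKBIB and NFKBIZ. The difference was 2.0 for RELB, 1.0 for TNFAIP3, 0.99 for NFKBIA and 0.95 for NFKB2. A difference of at least 1 was reached by 2 members, RELB and TNFAIP3, and by 14.1% of all genes. TNFAIP3 was just past this size and was short of it at 0.84 under TMM and 0.78 under median-of-ratios scaling. On all 3 scales RELB, NFKB2 and TNFAIP3 had opposite signs in the lines, negative in DU145. The difference itself has no test, since an interaction leaves no residual degree of freedom.

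With line as the unit of replication, no member passed the test of treatment across both lines. The limma fit to log2(CPM + 1) with line as a term called 0 of 10 members and 1.28% of the 14976 genes tested (Benjamini-Hochberg adjusted p under 0.05). TNFAIP2 alone had an unadjusted p under 0.05, at −0.87 ± 0.32 (SE, limma, adjusted p = 0.34), lower in both lines. RELB had an estimate of 0.72 ± 0.42 (limma, adjusted p = 0.71), an average over lines of opposite sign. edgeR and DESeq2 on the recovered fragments also called 0 members, with 1 and 0 at an unadjusted p under 0.05.

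At baseline, 8 of the 10 genes were lower in PC-3 than in DU145 on the deposited scale. The median difference was −0.73, against −0.16 for all genes with a mean over 10 CPM and −0.33 for all genes over 1 CPM. TNFAIP2 had a ratio of PC-3 to DU145 of 0.105 (0.10 to 0.110), TNFAIP3 one of 0.222 (0.210 to 0.235), NFKB2 one of 0.356 (0.339 to 0.373) and NFKBIE one of 0.437 (0.402 to 0.474). These 4 were lower by at least 2-fold, as were 24.9% of all genes over 1 CPM. RELA and NFKBIZ were higher in PC-3, with ratios of 1.19 (1.14 to 1.24) and 1.79 (1.69 to 1.90). TMM and median-of-ratios scaling raise the PC-3 side by 0.34 and 0.41. On those scales NFKBIE was short of 2-fold (−0.83 and −0.77), NFKBIZ passed it (1.17 and 1.23), and NFKB1 turned from −0.24 to 0.10 and 0.16. NFKB2, TNFAIP3 and TNFAIP2 were past 2-fold on all 3 scales.

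With OICR-9429, at doses that differ, the ratio of PC-3 to DU145 was 0.689 for NFKB2, 0.665 for NFKBIE and 0.448 for TNFAIP3, each nearer to 1 than with DMSO on all 3 scales. RELB was higher in PC-3 by at least 2-fold, as were 14.5% of all genes, and TNFAIP3 and TNFAIP2 were lower, as were 20.0%. Under both other scalings TNFAIP3 was short of 2-fold (−0.97) and NFKBIZ was past it (1.06). For RELB it was 0.534 (0.485 to 0.587) with DMSO and 2.21 (2.05 to 2.39) with OICR-9429, and for NFKBIA 0.663 (0.643 to 0.683) and 1.32 (1.28 to 1.36). The order of the lines was thus reversed for these 2 genes, on all 3 scales. The other 8 members kept their side of 1 on the deposited scale.

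**Figure D4:**
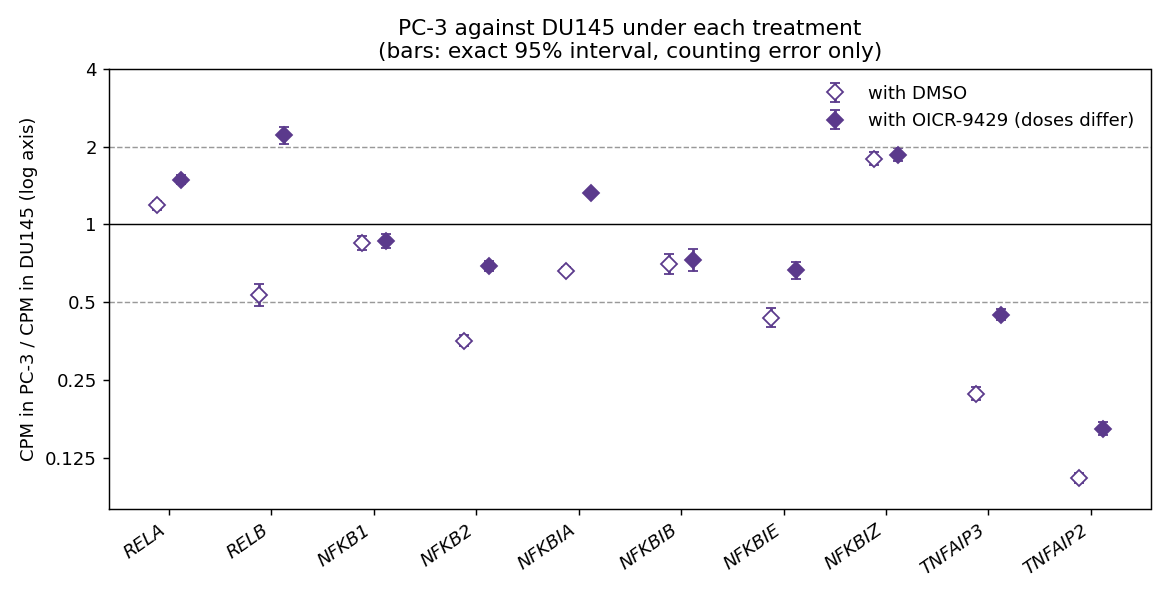
Ratio of CPM in PC-3 to CPM in DU145 with DMSO (open) and with OICR-9429 (filled), on a log axis, with exact 95% intervals for counting error only. RELB (0.534 and 2.21) and NFKBIA (0.663 and 1.32) lie on opposite sides of 1 under the 2 treatments.

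The line term of the same limma fit, over both treatments, called 4 of the 10 members at an adjusted p under 0.05, against 31.7% of all genes. Of these, 3 were lower in PC-3 (20.5% of all genes) and 1 was higher (11.2%). TNFAIP2 was lower in PC-3 by −2.91 ± 0.32 (SE, limma, adjusted p = 1.67e-05) and TNFAIP3 by −1.65 ± 0.33 (limma, adjusted p = 0.0019). Both were lower in PC-3 under each treatment and passed under every alternative run. NFKB2 was lower by −1.01 ± 0.33 (limma, adjusted p = 0.032) and NFKBIZ higher by 0.86 ± 0.30 (limma, adjusted p = 0.041). NFKB2 and NFKBIZ did not pass with edgeR (adjusted p = 0.0509 and 0.0529) or in limma without the treatment term (adjusted p = 0.0623 and 0.0501). NFKB2 also did not pass with limma under TMM (−0.75, adjusted p = 0.106) or median-of-ratios scaling (−0.71, adjusted p = 0.148), nor with DESeq2 (−0.77, adjusted p = 0.153). A gene's own residual gives this fit 1 degree of freedom, against 12.8 from the trend over all genes. The libraries of a line with DMSO and with OICR-9429 stand in for its replicates here. These p-values thus do not measure the spread between cultures of a line.

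RELB and TNFAIP2 were the members past 2-fold in a line, and the genes whose centred profile over the 4 libraries lay nearest were looked up among 9793 genes of at least 5 CPM in every library. Nearest to RELB were SAT2 at a Euclidean distance of 0.110 on the log2(CPM + 1) scale, ENSG00000217801 at 0.176 and STAT2, a transcription factor of the interferon response, at 0.185. STAT2 measured 116 and 103 CPM (DU145) and 74.4 and 239 CPM (PC-3). Nearest to TNFAIP2 were CDH3, which encodes P-cadherin, at 0.337, SNHG7 at 0.527 and TUFT1 at 0.587. A profile of 4 libraries carries little information, and the line difference enters it.

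Of 10 genes of IKK and its activating kinases, 0 were past 2-fold in DU145 and 1 was lower in PC-3 (medians −0.14 and 0.03), where 8.68% of all genes were lower. That gene was MAP3K14, the NIK kinase of the non-canonical pathway, with 39.0 and 46.7 CPM (DU145) and 62.8 and 20.8 CPM (PC-3). Its ratio in PC-3 was 0.33 (0.30 to 0.363), opposite in direction to RELB and NFKB2 there. The count of IKBKG is uncertain, since it shares sequence with a near-identical copy.

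Of 25 receptors and adaptors, 24 were measured over 1 CPM in each line, with 0 past 2-fold in DU145 and 4 higher and 1 lower in PC-3 (medians 0.03 and 0.14). Over all genes 7.15% were higher and 8.68% lower in PC-3, and 0.999% and 8.01% in DU145. IRAK2, a kinase-like adaptor of interleukin-1 and Toll-like receptors, measured 67.1 and 73.0 CPM (DU145) and 48.0 and 223 CPM (PC-3). TLR2, a receptor of bacterial lipoproteins, measured 3.33 and 1.34 CPM (DU145) and 9.72 and 30.7 CPM (PC-3). Its ratio in DU145 was 0.401 (0.267 to 0.591). The 2-fold rule is applied to log2(CPM + 1), however, where its change of −0.89 was short of 2-fold. TLR3, a receptor of double-stranded RNA, measured 3.62 and 4.11 CPM (DU145) and 2.01 and 7.09 CPM (PC-3). TRAF1, an adaptor that is itself a target of NF-kB, measured 36.2 and 36.4 CPM (DU145) and 1.91 and 5.94 CPM (PC-3). Both PC-3 libraries thus lay below both DU145 libraries for TRAF1. These 4 genes are the ones of the list that were furthest from their DMSO values.

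Of 16 ubiquitin ligases, deubiquitinases and their partners (15 over 1 CPM in PC-3), 0 were past 2-fold in DU145, and 2 were higher and 1 lower in PC-3 (medians 0.19 and 0.33), against 7.15% and 8.68% of all genes. RBCK1, which encodes HOIL-1 of the linear ubiquitin ligase complex, measured 200 and 257 CPM (DU145) and 130 and 608 CPM (PC-3), a ratio of 4.67 (4.51 to 4.84). N4BP1, an inhibitor of the pathway, measured 80.2 and 87.4 CPM (DU145) and 37.9 and 76.9 CPM (PC-3). PDLIM2, which promotes the degradation of nuclear RELA, measured 37.8 and 47.1 CPM (DU145) and 18.2 and 4.6 CPM (PC-3), a ratio of 0.254 (0.208 to 0.308).

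Of 9 genes of activating ligands, 3 were over 1 CPM in DU145, of which 2 were lower by 2-fold, and 4 in PC-3, of which 1 was higher, against 8.01% lower and 7.15% higher over all genes. LTB, which encodes lymphotoxin-beta, a ligand of the non-canonical pathway, measured 26.0 and 2.85 CPM (DU145), with a ratio of 0.110 (0.0861 to 0.138), and 2.70 and 2.63 CPM (PC-3). TNFSF10, which encodes TRAIL, measured 1.85 and 0.316 CPM (DU145) and 2.29 and 11.98 CPM (PC-3). TNFSF13B, the other ligand over 1 CPM in DU145, went from 0.761 to 1.93 CPM there, on 21 and 55 fragments. Its ratio was 2.54 (1.51 to 4.42), but its change of 0.74 on log2(CPM + 1) was short of 2-fold. Of 33 target genes, 28 were measured over 1 CPM in DU145, of which 1 was higher by 2-fold and 9 lower (median −0.34, against 0.999% higher and 8.01% lower over all genes). In PC-3 31 were measured, of which 11 were higher and 7 lower (median 0.61, against 7.15% higher and 8.68% lower over all genes). The lists were chosen with earlier results of these data known, so setting them against all genes is no test. Of the 9 targets lower in DU145, CXCL3 (−0.88 and −0.83), GADD45B (−0.81 and −0.76) and PTX3 (−0.93 and −0.89) were short of 2-fold under TMM and median-of-ratios scaling. The same held there for TNFSF10 (−0.98 and −0.95).

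SOD2, the mitochondrial superoxide dismutase, measured 801 and 437 CPM (DU145) and 170 and 1399 CPM (PC-3), a ratio of 8.23 there (7.99 to 8.48). LCN2, which encodes lipocalin-2, measured 74.0 and 117 CPM (DU145) and 60.3 and 330 CPM (PC-3). SOD2 was thus on opposite sides in the lines and LCN2 higher with OICR-9429 in both. SAA1, an acute phase protein, measured 8.81 and 0.492 CPM (DU145) and 3.0 and 3.81 CPM (PC-3). TNFAIP6, a hyaluronan-binding protein, measured 0.435 and 0.105 CPM (DU145) and 0.444 and 9.46 CPM (PC-3). Of 28 target genes tested across lines, 0 rose and 1 fell, the chemokine gene CXCL6 (limma, adjusted p = 0.030), with 7.0 and 1.58 CPM (DU145) and 177 and 42.8 CPM (PC-3).

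**Figure D5:**
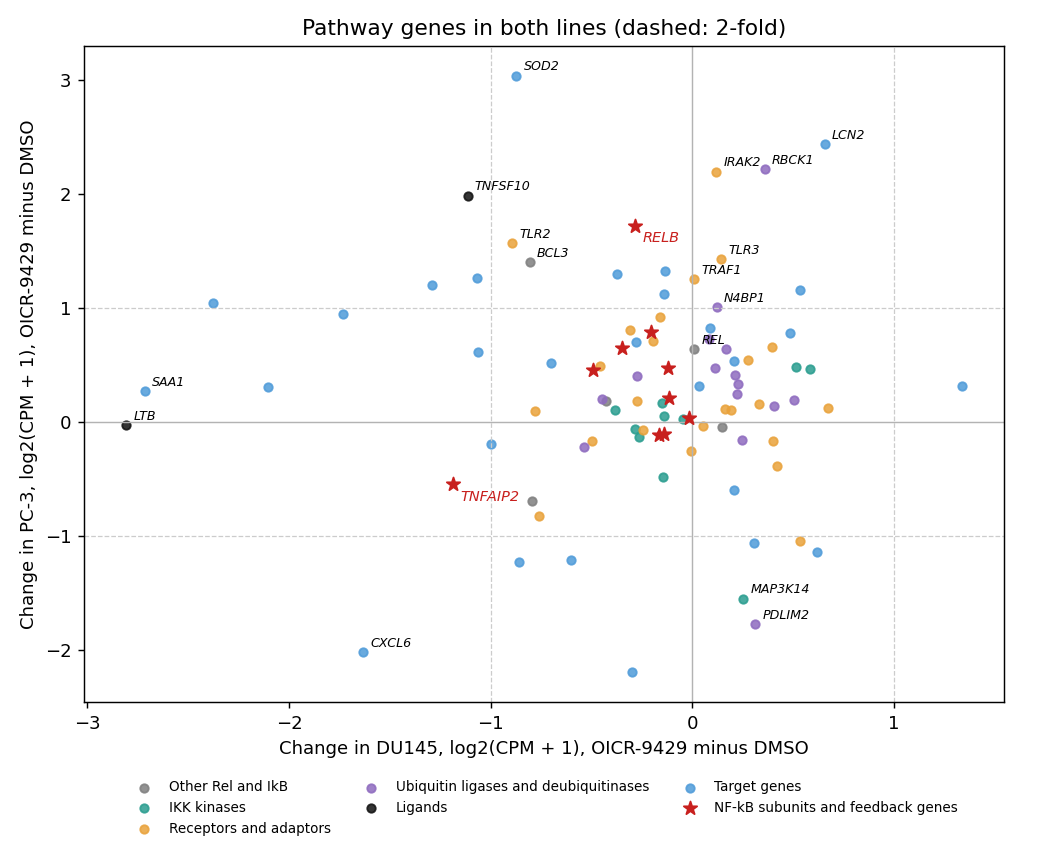
Change on the log2(CPM + 1) scale with OICR-9429 in DU145 (x axis) and in PC-3 (y axis) for pathway genes over 1 CPM in both lines, with dashed lines at 2-fold. Stars are the 10 members, of which RELB lies over 2-fold in PC-3 and TNFAIP2 lies over 2-fold lower in DU145.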

How the data were processed

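Per the file headers and the values, the authors deposited 1 table per library with Ensembl identifiers and values in CPM. Build hg19, the aligner HISAT2 2.1.0, HTSeq 0.6.1 and bcl2fastq 2.19.1 are listed, per the submitters' processing notes. The annotation and the strand setting of the count are not given there. All CPM values (100% within 0.01 of a step) were whole multiples of 1 step per library, so reads were recovered. Counts were even apart from values of 1 step (111 to 519 per library), taken as 0, so fragments are 2 reads each and 3 fragments equal 0.102 to 0.109 CPM. Of 27658 identifiers, 27302 were named by current symbols and 191 by GENCODE 29, which also gave exon lengths. NFKBIB shares 40 exon bases (1.88%) with SIRT2 on the other strand.

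The members and lists were chosen with earlier results of these data known. Within a line a gene was counted at 2-fold or more on log2(CPM + 1) with at least 1 CPM in the higher library, a rule of size with no test. limma 3.58.1 with trend was fitted to 14976 genes over 1 CPM in 2 libraries, with line and treatment as terms. Tested on simulated data for the treatment comparison, with 100 genes at each size, it found 4 at 2-fold and 68 at 4-fold, with 7 false calls. Named are all members, REL, BCL3, up to 4 genes per list past 2-fold in either line, with any that passed limma, and the 3 nearest profiles. IL1B, IL1R1, TNF, CCL20, IL6, C3, CXCL1, PLAU, BCL2A1, BCL2L1 and TNFRSF11A in the closing observations fall outside this rule. So do CXCL3, GADD45B and PTX3, named for their dependence on the scaling, and TNFSF13B, the other ligand over 1 CPM in DU145. Alternatives were TMM and median-of-ratios scaling, a pseudocount of 0.1, other minimum levels, edgeR 4.0.16 and DESeq2 1.42.0 on fragments, and fits without the second term. The labels do not say how cultures were grown in parallel. Other identifiers of the tables were used only as background.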

Additional observations from a re-analysis of the deposited data

Results flagged for a closer look

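Some genes stood on opposite sides of their DMSO library in the 2 lines, with both counting intervals away from 1 on the deposited scale. The difference between the lines was not tested for any of them. Among the members, the change in PC-3 minus the change in DU145 on the log2(CPM + 1) scale was 0.32 for RELA, 2.0 for RELB, 0.95 for NFKB2, 0.99 for NFKBIA, 0.59 for NFKBIE and 1.0 for TNFAIP3. All 6 had a ratio below 1 in DU145 and above 1 in PC-3. On all 3 scales this held for RELB, NFKB2 and TNFAIP3, while RELA, NFKBIA and NFKBIE were not lower in DU145 on at least 1 other scale. Among the other pathway genes named, the difference was 2.21 for BCL3, 2.46 for TLR2, 3.10 for TNFSF10, 3.91 for SOD2 and 3.23 for TNFAIP6, with the same signs. The same held for 3 secreted products chosen after their values were seen, with 3.42 for CCL20, 2.49 for IL6 and 2.41 for C3. It was −1.81 for MAP3K14 and −2.08 for PDLIM2, with the signs exchanged. Outside the naming rule the signs were also exchanged for BCL2A1 (−1.76), BCL2L1 (−1.37) and TNFRSF11A (−1.58), among others. TNFAIP6 rests on few fragments in 3 of the 4 libraries. TNFSF10 rests on 51 and 9 fragments in DU145 and on 67 in PC-3 with DMSO, and TLR2 on 92 and 38 in DU145.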

How the results depend on the processing

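Both the scaling and the model changed counts of members. The 1 member past 2-fold in DU145 became 0 under TMM and 0 under median-of-ratios scaling, and the 2 members whose change differed by at least 1 between lines became 1 under each, without TNFAIP3. The counts past 2-fold in PC-3 (1) and at baseline (4) were the same under every alternative, but at baseline NFKBIZ took the place of NFKBIE under both scalings. The treatment fit called 191 genes, against 91 under median-of-ratios scaling, 0 without a line term (230 at an unadjusted p under 0.05) and 301 with DESeq2, and 0 members throughout. The line fit called 4 members, against 2 without a treatment term and 2 with edgeR, which were TNFAIP2 and TNFAIP3 in both. TMM scaling moved its higher share of all calls from 35.4% to 50.7%, median-of-ratios scaling to 51.7% and DESeq2 to 49.8%. The higher share of the treatment calls was 9.42%, and 19.6% with DESeq2. The cause of these moves was not tested. No paired analysis was possible because each group has 1 library, so there are no replicate numbers to pair, beyond the line term of the treatment fit, which sets each treated library against that of its own line. No library could be left out of that fit, since no residual degree of freedom would remain.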

Other observations

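The genes described here were chosen after their values were seen. IL1B, which encodes the activating cytokine interleukin-1-beta, measured 0.254 and 0.141 CPM (DU145) and 541 and 414 CPM (PC-3). Its receptor gene IL1R1 measured 22.1 and 24.9 CPM (DU145) and 3.38 and 3.74 CPM (PC-3). The ligand was thus near 0 in the line with more receptor transcript. TNF lay between 0.0352 and 0.109 CPM in all 4 libraries, at or under the level of 3 fragments.

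CCL20, a chemokine gene, measured 29.6 and 4.89 CPM (DU145), with a ratio of 0.165 (0.137 to 0.198), and 2.90 and 7.01 CPM (PC-3), with a ratio of 2.42 (1.87 to 3.16). IL6, which encodes interleukin-6, had ratios of 0.386 (0.336 to 0.444) in DU145 and 2.34 (2.17 to 2.54) in PC-3. C3, the central complement protein, measured 148 and 33.6 CPM (DU145) and 33.0 and 40.9 CPM (PC-3). These 3 genes were lower in the treated DU145 library and higher in the treated PC-3 library, a difference that was not tested. Other target genes went elsewhere. BCL2A1 and BCL2L1 had the reverse signs, and CXCL1 and PLAU were lower with OICR-9429 in both lines.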
